A study of Mus musculus with 30 samples.

Results

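The 10 genes described here encode enzymes that modify collagen after its chains are made, and they were chosen as enzyme families, by name, with earlier results of these data known. They are the collagen prolyl 4-hydroxylase alpha subunits P4ha1, P4ha2 and P4ha3, the lysyl hydroxylases Plod1, Plod2 and Plod3, and the lysyl oxidases Lox, Loxl2, Loxl3 and Loxl4, 10 of 43629 genes in the count table. RNA-seq counts were analysed from the tibial fracture callus of male C57BL/6J mice that were lean and fed a lean diet or had diet-induced obesity (DIO) from a high-fat diet begun at 6 weeks of age. No transgene or other agent is named for any group, and the mice of both diets received the same open osteotomy of the tibial shaft, held with a nail in the marrow cavity, at 20 weeks of age. Each of the 10 groups held 3 mice, with 1 callus per library. Both diets were sampled at 4 times after fracture (d3, d5, d7 and d10), and d14 and d21 describe DIO mice alone, Lean mice of those days being not analysed here.

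Fibrillar collagen is modified in a fixed order. In the endoplasmic reticulum the prolyl 4-hydroxylases, tetramers of P4HA alpha subunits and the beta subunit P4HB, hydroxylate proline, which lets the triple helix hold at body temperature, and the lysyl hydroxylases hydroxylate lysine. PLOD2 acts on lysines of the non-helical telopeptides, PLOD1 on those of the helix, and PLOD3 also transfers glucose to hydroxylysine that carries galactose. After secretion the lysyl oxidases, which need copper, oxidize lysine and hydroxylysine to aldehydes that join neighbouring molecules by covalent crosslinks. In a healing fracture this chemistry acts on the collagens of the fibrous tissue, of the cartilage of the soft callus and of the new bone. The prolyl and lysyl hydroxylases use molecular oxygen, and several of these genes are textbook targets of the hypoxia-inducible factors.

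Total counts ran from 13247122 to 26365620 per library (median 16854427), and the lowest count of a member in a library was 38, for P4ha3. All 10 members passed the filter on low counts in every comparison. Every list of callus cell markers was counted, with none of the 12 chondrocyte, 10 osteoblast and 6 osteoclast markers at 0 throughout. That is what the tissue label says, though a check for 0 in every library could hardly fail. In bulk callus, fewer cells of a type and less RNA per cell cannot be told apart. The library Lean d10 replicate 1 stood apart, with a summed chondrocyte marker level of 87461 counts scaled to library size (CPM) against 16821 and 19185 in the other Lean d10 libraries. Its 8 skeletal muscle markers summed to 1072 CPM, against 14650 and 10108 in those libraries. In DIO mice the muscle markers summed to 7070 to 18911 CPM on d7 and 18247 to 25075 CPM on d10, so muscle RNA was counted as well. No 2 libraries of a group agreed within sampling noise (chi-square per degree of freedom 12.8 to 148). Plod3 shares 11.7% of its exonic length with Znhit1 and Loxl3 shares 11.6% with Htra2, in both cases on the opposite strand. The strand setting of the counting is not given in the sources used here, so reads from these stretches cannot be assigned with certainty.

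All members were expressed in all groups, and in 8 of the 10 the highest group mean was that of DIO d7. The exceptions were P4ha3, highest in DIO d5 at 83.0 ± 4.79 CPM (mean ± SD, n = 3 here and throughout), and Loxl4, highest in Lean d10 at 281 ± 187 CPM. DIO d21 held the lowest mean of every member but Plod2, which was lowest in Lean d3 at 130 ± 19.9 CPM. From the lowest to the highest group, means differed 2.96-fold for Lox and 14.5-fold for P4ha3, and the other members lay in between. Per length, as CPM per kilobase of exon (RPKM), Lox was the most abundant member (mean over groups 91.4 RPKM), followed by P4ha1 at 50.7, and P4ha3 was the least abundant at 13.7. Neighbouring groups in these orders mostly overlapped. For P4ha2, Plod2 and Loxl2 the 3 libraries of DIO d7 lay above every library of the next group, DIO d5, and for P4ha1, P4ha2, Plod1, Lox and Loxl2 the 3 libraries of DIO d21 lay below those of the group next above it. For Loxl3 and Loxl4 no pair of neighbours was apart.

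**Figure D1:**
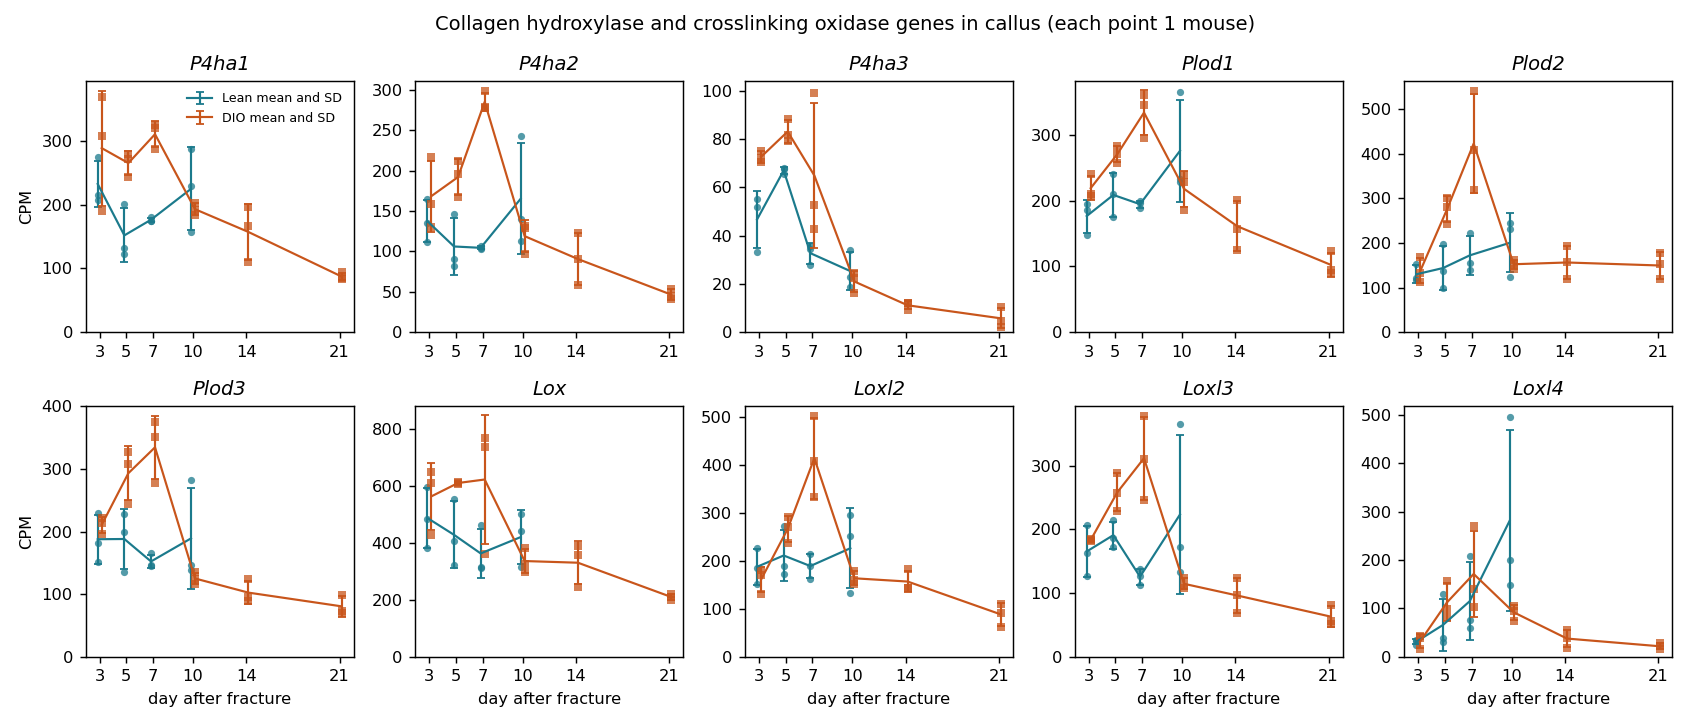
TMM-scaled CPM of each member (vertical axis, from 0) against the day after fracture, with 1 point per mouse and lines joining group means with SD bars for Lean (teal circles) and DIO (orange squares). Means of 8 members were highest in DIO d7, whereas P4ha3 was highest in DIO d5 and Loxl4 in Lean d10.

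The diets were compared within each day to ask how obesity changes callus gene expression as it heals. On d7, 7 of the 10 members were higher in DIO than in Lean callus past the threshold (edgeR quasi-likelihood test, Benjamini-Hochberg adjusted p under 0.05 over all genes), where 1.4% of the 15753 genes tested were called higher. The 7 were P4ha1, P4ha2, Plod1, Plod2, Plod3, Loxl2 and Loxl3, with means 1.72-fold to 2.73-fold those of Lean mice. P4ha3, Lox and Loxl4 also had higher means in DIO mice but did not pass. The median log2 fold change of the 10 was 1.07, against 0.00 for all genes tested.

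Promoter sequence was looked up for the members because they moved together on d7. A RefSeq table (GRCm38.p6) was read for 6 of them, each with 250 bases before the RefSeq transcription start and 50 from it. Plod2, Loxl2 and Loxl3 have no entry in it. Lox was left out of the look-up, so whether the table holds its promoter is not stated here. The letters ACGTG and GCGTG, the core that hypoxia-inducible factors bind, were counted on both strands, and ACGTG is also part of the E-box CACGTG. There were 3 matches for P4ha1, 4 for P4ha2, 4 for Plod3, 2 for Plod1, 1 for Loxl4 and 0 for P4ha3. Of 32851 promoters in the table, 43.8% held at least 1 match, 8.93% at least 3 and 3.86% at least 4, with a median of 0. The promoters below belong to P4ha1, P4ha2 and Plod3, which were called higher in DIO mice on d7, and to P4ha3, which was not called by edgeR. Those of Plod1, called higher with 2 matches, and Loxl4, not called with 1 match, are not shown. Whether matches go with the diet difference was not tested. They are written 5′ to 3′ along the gene, in lower case with the matches in capitals, and a match is a description of letters, not of bound protein.
P4ha1, chr10:59323046-59323345, + strand: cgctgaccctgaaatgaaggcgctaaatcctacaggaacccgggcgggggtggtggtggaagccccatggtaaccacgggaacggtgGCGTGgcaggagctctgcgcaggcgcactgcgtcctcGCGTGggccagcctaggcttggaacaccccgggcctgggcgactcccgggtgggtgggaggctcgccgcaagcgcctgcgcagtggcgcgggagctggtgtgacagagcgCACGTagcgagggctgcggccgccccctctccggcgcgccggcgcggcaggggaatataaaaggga
P4ha2, chr11:54100674-54100973, + strand: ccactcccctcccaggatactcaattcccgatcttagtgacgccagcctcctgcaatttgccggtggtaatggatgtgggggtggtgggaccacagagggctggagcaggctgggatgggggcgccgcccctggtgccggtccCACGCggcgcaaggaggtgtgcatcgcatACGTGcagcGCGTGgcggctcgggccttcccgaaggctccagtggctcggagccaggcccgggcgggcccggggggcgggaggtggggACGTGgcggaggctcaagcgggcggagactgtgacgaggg
Plod3, chr5:136986769-136987068, + strand: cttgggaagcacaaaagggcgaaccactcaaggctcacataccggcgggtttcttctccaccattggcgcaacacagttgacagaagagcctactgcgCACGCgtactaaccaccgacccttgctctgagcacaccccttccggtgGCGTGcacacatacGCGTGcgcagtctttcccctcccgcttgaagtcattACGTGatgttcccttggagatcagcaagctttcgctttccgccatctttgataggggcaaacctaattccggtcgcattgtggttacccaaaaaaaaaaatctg
P4ha3, chr7:100285270-100285569, + strand: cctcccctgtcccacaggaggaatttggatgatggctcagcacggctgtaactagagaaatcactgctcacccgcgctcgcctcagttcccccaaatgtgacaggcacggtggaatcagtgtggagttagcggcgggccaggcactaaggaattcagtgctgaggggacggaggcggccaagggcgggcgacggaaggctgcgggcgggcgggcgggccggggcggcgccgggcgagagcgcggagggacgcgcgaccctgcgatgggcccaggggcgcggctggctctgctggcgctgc

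Of the alpha subunits of prolyl 4-hydroxylase, P4ha2 showed the largest difference between diets on d7. Its level was 103, 104 and 106 CPM in the Lean libraries and 278, 298 and 279 CPM in the DIO libraries. The groups were far apart and the spread within each was small. The mean was 2.73-fold higher in DIO mice (log2 fold change 1.46, SE 0.15, adjusted p = 0.0047), the smallest p among the members. P4ha1, the principal alpha subunit in most tissues, was at 174, 174 and 180 CPM in Lean and 319, 324 and 287 CPM in DIO mice. It was 1.76-fold higher, again without overlap (log2 fold change 0.83, SE 0.16, adjusted p = 0.0293). P4ha3 was at 35.7, 27.8 and 34.6 CPM in Lean and 42.8, 99.1 and 52.7 CPM in DIO mice. All its DIO values were above the Lean ones, but a single DIO library held the highest value by far. The edgeR test was not passed (log2 fold change 1.00, SE 0.29, adjusted p = 0.121). DESeq2 did call P4ha3 (adjusted p = 0.0174), and so did edgeR with no filter but 1 count (adjusted p = 0.0306).

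All 3 lysyl hydroxylases were higher in DIO callus on d7. Plod2, which hydroxylates telopeptide lysine, was at 140, 155 and 221 CPM in Lean and 409, 540 and 318 CPM in DIO mice. Its libraries varied more than those of the other 2 genes, yet the lowest DIO value was above the highest Lean value. It was 2.46-fold higher (log2 fold change 1.31, SE 0.25, adjusted p = 0.0309). Plod3, the hydroxylase that also glycosylates, was at 165, 146 and 146 CPM in Lean and 278, 375 and 351 CPM in DIO mice, and its groups did not overlap (log2 fold change 1.15, SE 0.18, adjusted p = 0.0173). Plod1 was at 196, 199 and 189 CPM in Lean and 296, 345 and 361 CPM in DIO mice, the smallest difference of the family at 1.72-fold (log2 fold change 0.79, SE 0.16, adjusted p = 0.0399). No Lean library reached a DIO library for any of the 3 genes.

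Among the lysyl oxidases, Loxl2 and Loxl3 were higher in DIO mice on d7 and the others did not pass. Loxl3 was at 127, 113 and 138 CPM in Lean and 247, 378 and 311 CPM in DIO mice. It was 2.48-fold higher with no overlap (log2 fold change 1.32, SE 0.20, adjusted p = 0.0158). Loxl2, which also oxidizes the type IV collagen of basement membranes, was at 163, 190 and 214 CPM in Lean and 408, 502 and 333 CPM in DIO mice, a 2.19-fold difference (log2 fold change 1.14, SE 0.20, adjusted p = 0.0258). Lox, the founding member of the family, was at 314, 313 and 461 CPM in Lean and 736, 769 and 361 CPM in DIO mice. One DIO library lay inside the Lean range, and the difference did not pass (log2 fold change 0.79, SE 0.30, adjusted p = 0.22). Loxl4 was at 76.3, 60.4 and 208 CPM in Lean and 271, 103 and 140 CPM in DIO mice, so that the groups overlapped (log2 fold change 0.58, SE 0.48, adjusted p = 0.599).

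The d7 call depended on single mice, although its direction did not. With all mice, 366 of 15753 genes were called in either direction, and calls over all genes moved as well. Without Lean d7 replicate 1 or without Lean d7 replicate 2, 1 member passed, P4ha2 in both cases. In these fits 34 of 16185 and 29 of 16166 genes were called. Without DIO d7 replicate 1 there were 3 members (184 of 16138 genes), and without DIO d7 replicate 2 there were 4 (165 of 16187). Without Lean d7 replicate 3 there were 5 (242 of 16111), and without DIO d7 replicate 3 there were 8 (936 of 16206). P4ha2 alone kept its call in all 6 such fits, and P4ha1 and Plod1 lost theirs in 5. The 7 log2 fold changes stayed between 0.74 and 1.54.

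The remaining days gave no member past the threshold between diets. On d3, when 0% of 15772 genes were called by edgeR (2374 had an unadjusted p under 0.05, and DESeq2 called 728), 0 of the 10 members were called and log2 fold changes ran from -0.21 for Loxl2 to 0.65 for P4ha3. On d5 all 10 members had higher means in DIO mice, with log2 fold changes of 0.31 to 0.94, and 0 were called where 1.08% of 15722 genes were called. By unadjusted p, 8 of the members were under 0.05 on d5, as were 2913 of the 15722 genes. In these 8 every DIO library was above every Lean library, a count that was not made over all genes. The 8 were picked by that p from the same libraries, so their separation is no further support. DESeq2 called 4 members on d5, P4ha1, P4ha2, Plod2 and Plod3, where 1150 of 15722 genes were called. Without Lean d5 replicate 3, edgeR called 6 members, where 935 of 16064 genes were called. On d10 all 10 members had lower means in DIO mice, with log2 fold changes of -0.21 for P4ha1 to -1.60 for Loxl4. Without Lean d10 replicate 1, the library that stood apart, 9 did, P4ha3 turned to a log2 fold change of 0.0079, P4ha1 was at -0.0049 and Loxl4 at -0.92. None passed on d10, when 0% of 15341 genes were called (1082 had an unadjusted p under 0.05, 2 of them members, and DESeq2 called 47 genes including Loxl4). On d10 Loxl4 was at 495, 148 and 201 CPM in Lean and 74.8, 106 and 95.5 CPM in DIO mice, and the highest value was again from that library.

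**Figure D2:**
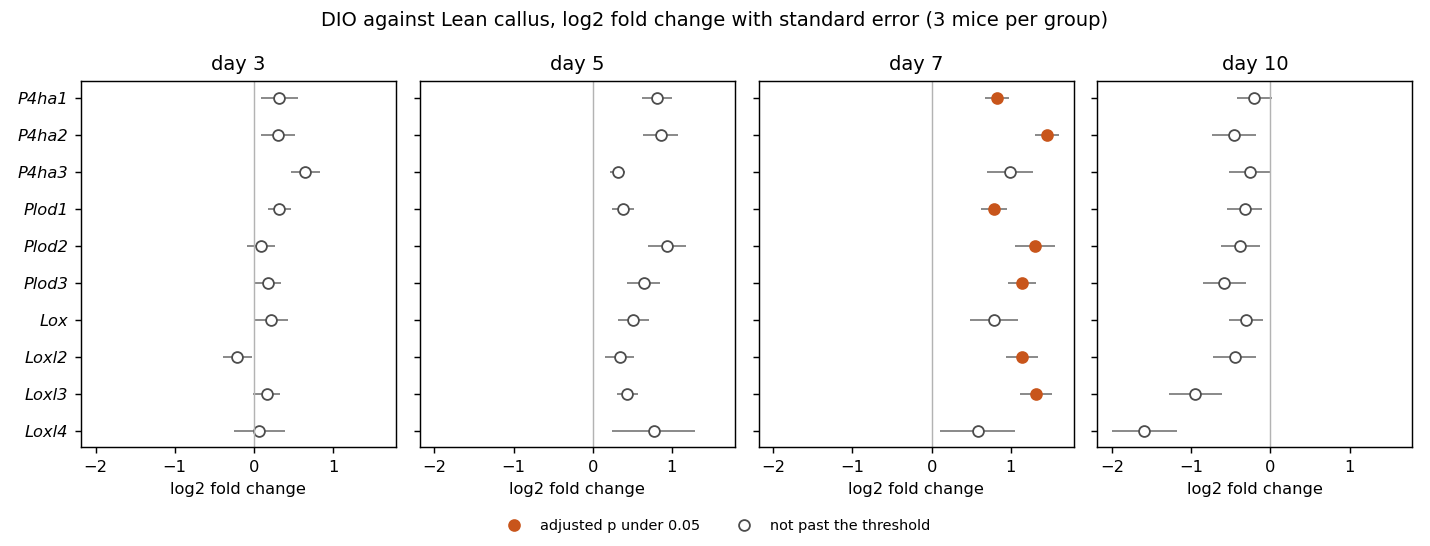
Log2 fold change of DIO against Lean callus (horizontal axis) with its SE for each member on d3, d5, d7 and d10, from edgeR fits of 3 mice per group, with filled orange points for adjusted p under 0.05. On d7, 7 points are filled and all 10 lie above 0, whereas on d10 all 10 lie below 0 and none is filled (9 without Lean d10 replicate 1, when P4ha3 turns).

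From d7 to d10 the members fell in DIO callus. Of the 10, 9 were lower on d10 past the threshold, where 7.01% of 16995 genes were called lower, and Loxl4 had a lower mean without passing. P4ha3 went from 42.8, 99.1 and 52.7 CPM on d7 to 24.3, 22.3 and 16.3 CPM on d10. It fell by 1.63 on the log2 scale (SE 0.36, adjusted p = 0.00581), and its d7 mean was 3.09-fold its d10 mean. Plod3 went from 278, 375 and 351 CPM to 125, 135 and 116 CPM, with the smallest p among the members (log2 fold change -1.42, SE 0.18, adjusted p = 5.03e-05).

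The other called members fell by less than P4ha3. Plod2 went from 409, 540 and 318 CPM to 142, 153 and 162 CPM, with no overlap (log2 fold change -1.47, SE 0.22), and Plod1 had the smallest of the called changes (-0.61, SE 0.17). Of the lysyl oxidases, Loxl3 (log2 fold change -1.44, SE 0.21), Loxl2 (-1.34, SE 0.20) and Lox (-0.89, SE 0.24) were called, with overlap between days for Lox alone among them. The prolyl hydroxylase subunits P4ha2 (log2 fold change -1.26, SE 0.23) and P4ha1 (-0.69, SE 0.21) were called as well. Between 6 and 8 members passed when 1 mouse at a time was left out in 6 fits. Over all genes these fits called 1510 to 2495 in either direction, against 2212 with all mice. P4ha1 lost its call in 5 of these, Plod1 in 4 and Lox in 4, and the other 6 called members in none.

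No member was called over the same step in Lean callus. From d7 to d10 in Lean mice 9 of the 10 members had higher means, all but P4ha3, and 0 passed where 2.73% of 16471 genes were called, with log2 fold changes of -0.36 to 1.31. Without Lean d10 replicate 1 it was 8, since Plod3 turned (142.8 CPM on d10 against 152.3 on d7). The change of the diet difference from d7 to d10, a contrast over both diets in 1 fit of 24 libraries, was lower past the threshold for 7 members, where 3.37% of 17057 genes were called lower. Loxl3 changed most among the called members (log2 -2.27, SE 0.37, adjusted p = 0.00269), followed by P4ha2 (-1.92, SE 0.36), Plod3 (-1.73, SE 0.33), Plod2 (-1.69, SE 0.37) and Loxl2 (-1.60, SE 0.34). Plod1 (-1.11, SE 0.24) and P4ha3 (-1.26, SE 0.36, adjusted p = 0.0481) passed too. P4ha1, Lox and Loxl4 did not (adjusted p = 0.0576, 0.0877 and 0.0995), and all 10 values were negative. This contrast uses the same d7 and d10 libraries as the comparisons above. When 1 mouse at a time was left out in 12 fits, the other 6 called members kept the call in all. P4ha3 lost it in 8 of the 12, that is without each Lean d7 and each DIO d10 mouse in turn, without DIO d7 replicate 2 (log2 -0.81) and without Lean d10 replicate 1, the library that stood apart (log2 -0.97, adjusted p = 0.18). It lost the call with the replicate block too (adjusted p = 0.0577).

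**Figure D3:**
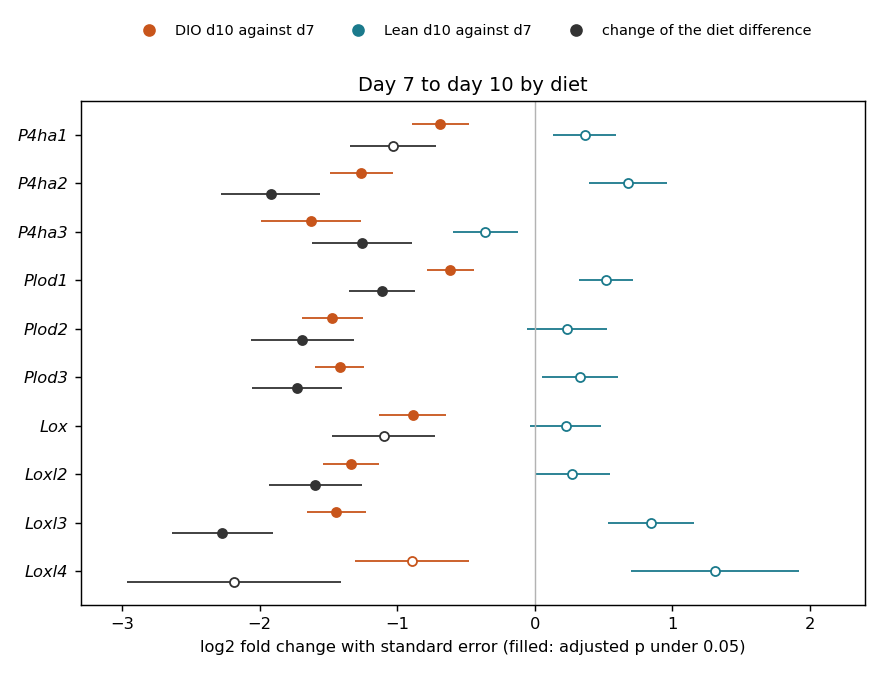
Log2 fold change from d7 to d10 with its SE (horizontal axis) for each member in DIO mice (orange) and in Lean mice (teal), and the change of the diet difference (dark grey), filled where adjusted p was under 0.05. Orange points lie below 0 for all 10 members and are filled for 9, no teal point is filled, and 7 of the grey points are filled.

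The healing course within a diet was followed from the earliest to the later days. In Lean mice, Loxl4 rose most from d3 to d10, from 35.6, 25.4 and 32.8 CPM to 495, 148 and 201 CPM. The days did not overlap (log2 fold change 3.20, SE 0.66, adjusted p = 0.00458), and 2.52 on the log2 scale without the library that stood apart. Plod1 rose (log2 fold change 0.68, SE 0.20, adjusted p = 0.0235), a call lost without that library (log2 fold change 0.43, adjusted p = 0.0865), so that 2 members were called higher where 15.2% of genes were. P4ha3 was the 1 member called lower, where 14.1% of genes were (log2 fold change -0.85, SE 0.23, adjusted p = 0.0187). Without Lean d3 replicate 1, 1 of these 3 calls was left. The first of the shorter Lean steps, d5 against d3, gave 0 members where 0.449% of genes were called. Lean d7 against d5 gave 0 members where edgeR called 0% of genes (926 had an unadjusted p under 0.05, and DESeq2 called 37, P4ha3 among them). P4ha3 was at 67.9, 67.5 and 65.4 CPM on Lean d5 and at 35.7, 27.8 and 34.6 CPM on Lean d7. Over all Lean days together, P4ha3 and Loxl4 changed (2 of 10 members, 19% of genes; adjusted p = 0.00814 and 0.0185). Without Lean d3 replicate 2 or without Lean d10 replicate 1, only 1 of these 2 was called.

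In DIO mice the first step, from d3 to d5, raised Plod2 and Loxl4, 2 of 10 members where 1.39% of genes were called higher. Plod2 went from 112, 133 and 167 CPM to 301, 281 and 243 CPM, a 2.00-fold increase (log2 fold change 1.00, SE 0.22, adjusted p = 0.0222). Loxl4 went from 15.98, 42.8 and 38.5 CPM to 157, 98.8 and 82.1 CPM (log2 fold change 1.79, SE 0.42, adjusted p = 0.0376). In neither gene did the days overlap. The call was lost for both genes without DIO d3 replicate 1, DIO d3 replicate 2, DIO d5 replicate 1 or DIO d5 replicate 2, and 1 was left without DIO d3 replicate 3. From d5 to d7, 0 members passed where 0.0177% of genes were called, although 9 of the 10 means were higher on d7.

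The days after d10 were followed in DIO mice alone. From d10 to d14, 0 members passed where 0.759% of genes were called, and log2 fold changes ran from -1.29 for Loxl4 to 0.04 for Plod2. From d14 to d21, 5 members fell, where 9.03% of genes were called lower, and all 10 means were lower. P4ha2 went from 90.9, 58.1 and 123 CPM on d14 to 44.4, 53.9 and 41.2 CPM on d21, falling by 0.96 on the log2 scale (SE 0.23, adjusted p = 0.0094). The other called log2 fold changes were -0.85 for P4ha1 (SE 0.21), -0.83 for Loxl2 (SE 0.20), -0.65 for Plod1 (SE 0.17) and -0.61 for Loxl3 (SE 0.21, adjusted p = 0.0494). Plod2 did not follow, at 192, 118 and 157 CPM on d14 and 178, 152 and 118 CPM on d21, ranges that overlapped almost wholly (log2 fold change -0.07, SE 0.22). The count of 5 was 1 without DIO d14 replicate 3 or without DIO d21 replicate 1, and 3 without DIO d21 replicate 3, and Loxl3 lost its call in 4 of the 6 fits with 1 mouse left out. In the same step the summed level of 7 erythroid marker genes went from 3778 to 12262 CPM on d14 to 25345 to 36237 CPM on d21, with 6 of the 7 called higher. Lower in the same step were 5 of 9 markers of fibroblasts and skeletal progenitors (median log2 fold change -0.83), 4 of 10 osteoblast markers (-0.70), 2 of 12 chondrocyte markers and 2 of 6 osteoclast markers. The part of these cell types in the members' levels was not tested.

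Set against d3, DIO d10 held 4 members that were lower, where 10.8% of genes were called lower, and 1 that was higher, where 11.1% were. The lower ones were P4ha3 (log2 fold change -1.79, SE 0.36), Plod3 (-0.75, SE 0.17), Lox (-0.74, SE 0.24) and Loxl3 (-0.68, SE 0.21), and the higher one was Loxl4, at 2.84-fold (adjusted p = 0.017). Leaving out 1 mouse at a time in 6 fits, P4ha3 and Plod3 kept the call in all, Loxl3 lost it in 6, Lox in 5 and Loxl4 in 2. The count was 2 without DIO d10 replicate 2, 3 without DIO d3 replicate 2, DIO d3 replicate 3, DIO d10 replicate 1 or DIO d10 replicate 3, and 4 without DIO d3 replicate 1, where P4ha1 was called in addition (adjusted p = 0.0095). Over all DIO days together every member changed, 10 of 10, where 59.1% of genes did. The mean of P4ha3 was lower on each day after d5, down to 2.19, 10.3 and 4.61 CPM on d21. A second-degree time course over d3 to d10 differed by diet for 7 members, where 8.13% of genes differed. These were P4ha1, P4ha2, Plod1, Plod2, Plod3, Loxl2 and Loxl3, with adjusted p from 0.00665 for P4ha2 to 0.0245 for Loxl2. The test took the diet term and its terms in the day together, so a constant difference between diets can pass it too.

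The shares of the genes within each group of enzymes varied over healing, shown here as shares of the summed RPKM of the genes described, with no test. For the lysyl oxidases these are shares of 4 genes and not of every lysyl oxidase. P4ha1 held the largest share of the alpha subunits in every group, from 48.5% in Lean d5 to 69.9% in DIO d21. P4ha3 held 29.2% in Lean d5 and 21.8% in DIO d5, and 9.09% and 9.27% on d10, before it reached 5.71% in DIO d21. P4ha2 held 32.4% in DIO d7 against 23.9% in Lean d7. Among the lysyl hydroxylases Plod3 led on d3, with 45.1% in Lean and 44.7% in DIO mice, and Plod2 led in DIO d21 with 45.6%. Lox had the largest mean share of the 4 oxidases in every group, although Loxl4 exceeded it in Lean d10 replicate 1 (117 against 92.6 RPKM), and the share of Loxl4 went from 4.14% in Lean d3 to 25.7% in Lean d10, against 3.81% and 14.8% in DIO mice.

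**Figure D4:**
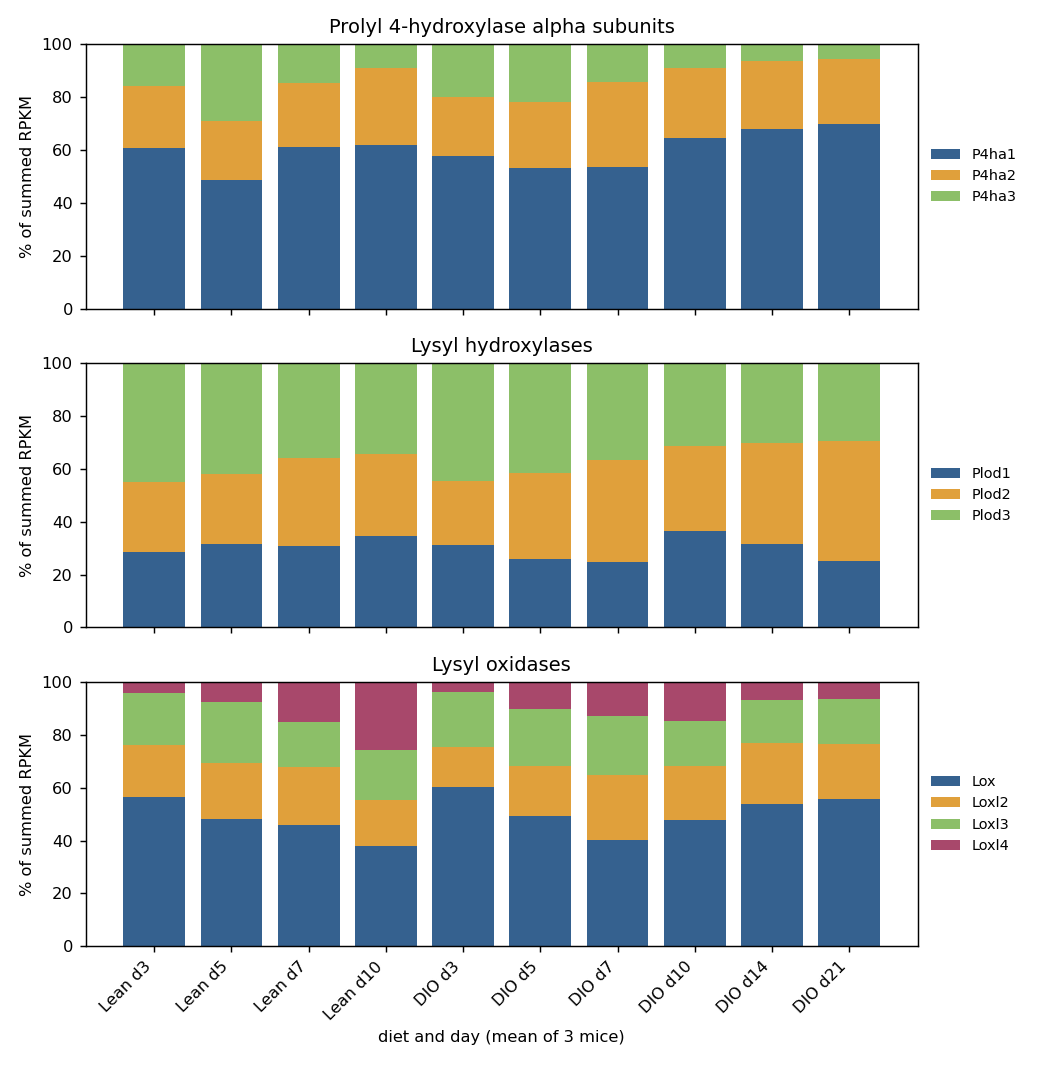
Share of each gene in the summed RPKM of the 3 or 4 members of its kind (vertical axis, percent, mean of 3 mice) for the 10 groups of diet and day. P4ha3 shrinks from 29.2% in Lean d5 to 9.09% in Lean d10 and to 5.71% in DIO d21, Plod2 grows to 45.6% in DIO d21, and Loxl4 is widest in Lean d10 at 25.7%.

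The summed level of the members was set beside that of their substrate mRNA. The 11 fibrillar collagen chain genes summed to 68141, 75810 and 88717 CPM in Lean d7 and 93407, 65523 and 95774 CPM in DIO d7, ranges that overlapped. The 10 members summed to 1494, 1483 and 1898 CPM in Lean d7 and 3286, 3734 and 2794 CPM in DIO d7, ranges that did not. For every 1000 CPM of fibrillar collagen there were 21.0 ± 1.24 CPM of members in Lean d7 and 40.4 ± 14.6 in DIO d7. This ratio was 37.1 ± 4.10 in Lean d3 and 40.7 ± 6.72 in DIO d3, and it was 18.4 ± 0.872 in Lean d10 and 18.4 ± 1.51 in DIO d10. The lowest DIO d7 library, at 29.2, was above the highest Lean d7 library, at 21.9. On single chains, 0 of 11 were called higher and 1 lower in DIO d7, Col24a1 (log2 fold change -1.14), with a median log2 fold change of 0.56.

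**Figure D5:**
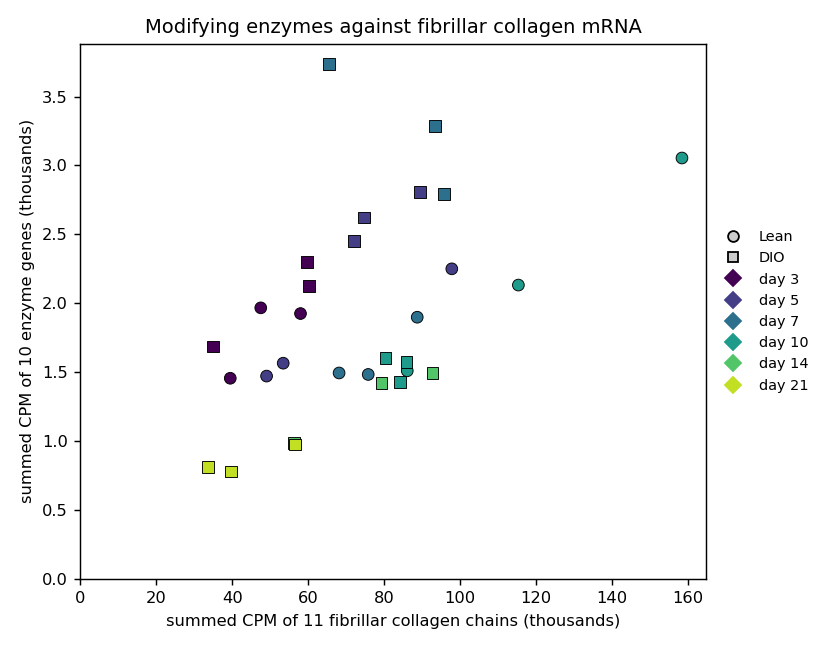
Summed CPM of the 10 members (vertical axis, CPM divided by 1000) against summed CPM of the 11 fibrillar collagen chains (horizontal axis, CPM divided by 1000), with 1 point per mouse, circles for Lean, squares for DIO and colour for day. The 3 DIO d7 mice lie at 2794 to 3734 CPM of members and the Lean d7 mice at 1483 to 1898 CPM, while their collagen sums overlap.

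Partners in collagen assembly were read from a list of their own. Of 25 other genes of collagen biosynthesis and processing, 24 were tested, and 4 were higher in DIO mice on d7 (median of the list 0.44 on the log2 scale). They were P3h2, a prolyl 3-hydroxylase (log2 fold change 2.09), Colgalt2, a collagen galactosyltransferase (2.11), Pcolce2, an enhancer of procollagen cleavage (1.60), and P3h4, a partner of lysyl hydroxylase (0.80). From d7 to d10 in DIO mice 7 of the 24 were lower and 2 higher, and 6 of the 11 fibrillar chains were lower and 1 higher. The change of the diet difference was lower for 8 of the 24 and 3 of the 11. From d14 to d21, 11 of the 24 were lower, among them Fkbp14 (-1.05), P3h4 (-1.15) and Fkbp10 (-1.16), which fold or modify collagen in the endoplasmic reticulum, and 2 of the 11 chains were lower. In Lean d10 against d3, 7 of the 11 chains and 11 of the 24 partners were higher, with medians of 1.04 and 0.70, whereas the members had a median of 0.30.

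Genes of the hypoxia response, to which several members belong in textbooks, were read in the same way. Of 16 others, 8 were higher in DIO mice on d7, and the median over the 16 was 0.86 on the log2 scale. Those with the smallest p were Bnip3, a mitophagy receptor (log2 fold change 1.95), Slc2a1, a glucose transporter (1.74), Car9, a carbonic anhydrase (2.47), and Egln3, a prolyl hydroxylase that acts on hypoxia-inducible factors (1.62). From d7 to d10 in DIO mice 8 of the 16 were lower and 1 higher, and Slc2a1 fell by 2.00 on the log2 scale. The change of the diet difference was lower for 5. From d14 to d21 in DIO mice 0 of the 16 passed edgeR's threshold, and all genes tested had a median of -0.03. In other comparisons the list and the members parted. From d3 to d5 in DIO mice 3 of the 16 had higher means (median -0.23), against 9 of the 10 members (median 0.39). Between diets on d10 the medians were 0.13 for the 16 and -0.42 for the members, with 0 called in either. The part of hypoxia in the members' levels was not tested.

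Markers of other cell types moved on the same days as the members. The 12 chondrocyte markers summed to 5041 to 18989 CPM in Lean d7 and 20844 to 46430 CPM in DIO d7, with 4 of 12 called higher and a median log2 fold change of 1.92. They summed to 2976 to 8752 CPM in DIO d10, with 10 of 12 called lower than on d7. On d7 in DIO mice 5 of the 5 tested osteoclast markers, 2 of 10 osteoblast markers and 3 of 10 leukocyte markers were lower, and 0 of 9 markers of fibroblasts and skeletal progenitors were called, with a median of 0.03. From d7 to d10 in DIO mice 6 of 6 osteoclast, 6 of 10 osteoblast, 3 of 10 leukocyte and 4 of 5 adipocyte markers were higher, with a median log2 fold change of 4.09 for the adipocyte list. The part of these cell types in the members' levels was not tested. In Lean mice all 12 chondrocyte markers were higher on d10 than on d3, with a median log2 fold change of 6.90, while Loxl4 and Plod1 were the members called higher.

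Members resembled each other to unequal degrees over the 10 group means of log2 CPM, a description over points that share libraries and days. The median Pearson r of the 45 pairs was 0.816 and 26 pairs were above 0.8. Plod3 and Loxl3 were the closest pair (r = 0.977), and P4ha3 and Plod2 the least alike (r = 0.324). Among 17347 other genes, the most like were Uso1 for P4ha1 (r = 0.989), Ptgs2os for P4ha2 (0.985), Ccdc102a for P4ha3 (0.992) and Calu for Plod1 (0.992). For Plod2 it was Gm16183 (0.972), for Plod3 Fads2 (0.993), for Lox Smpdl3b (0.983), for Loxl2 Lyplal1 (0.966), for Loxl3 Emilin1 (0.983) and for Loxl4 Dhx58os (0.987). P4hb, which encodes the beta subunit of prolyl 4-hydroxylase, came second for P4ha2 (0.982).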

How the data were processed

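Callus RNA was made into stranded poly(A) libraries and sequenced. The authors demultiplexed the reads, trimmed them with BBDuk, aligned them to GRCm38 with HISAT2 2.1.0 and counted them per gene with HTSeq, whose version, strand option and annotation are not given in the sources used here. The deposited values are raw counts for 43629 genes, of which 42462 were matched to a symbol and exon length in GENCODE M21.

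Everything else was computed here with edgeR 4.0.16 (R 4.3.3) and pandas 2.3.3 (Python 3.11.15). Libraries were scaled by TMM, and low genes were removed by filterByExpr. The two-sided quasi-likelihood F-test was used with Benjamini-Hochberg adjustment over all genes kept and a threshold of 0.05. Lean days were fitted over 12 libraries, DIO days over 18, the diets within a day over 6, and the change of the diet difference and the time course over 24. The authors compared single days with DESeq2. CPM values use TMM factors over all 30 libraries, and RPKM is CPM per kilobase of merged exons. Each library was 1 mouse, so precision rests on the spread among 3 animals more than on counting error. Some of the comparisons were also run on simulated counts with planted fold changes, and the outcome is not given here. Fold changes between group means are of CPM, and log2 fold changes are the fitted ones.

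Alternatives were RLE factors, DESeq2 1.42.0, no filter but 1 count, the replicate number as a block, all 30 libraries in 1 fit and each mouse left out in turn. All 10 members are named in every comparison, other lists by up to 4 genes of lowest adjusted p, and the gene most alike each member by Pearson r. Members and lists were chosen with earlier results of these data known.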

Additional observations from a re-analysis of the deposited data

Results flagged for a closer look

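The difference between diets changed from d7 to d10 for 7 members by a test of the difference itself, as the contrast over both diets in edgeR. On the log2 scale the change was -1.92 for P4ha2, -1.26 for P4ha3, -1.11 for Plod1, -1.69 for Plod2, -1.73 for Plod3, -1.60 for Loxl2 and -2.27 for Loxl3. P4ha3 (adjusted p = 0.0481) lost this call in 8 of 12 fits with 1 mouse left out, and with the replicate block. All 7 had higher means in DIO mice on d7 and lower means on d10, but without Lean d10 replicate 1 the d10 mean of P4ha3 was 20.8 CPM in Lean and 21.0 CPM in DIO mice.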

How the results depend on the processing

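No direction of a called value turned under any alternative, and RLE factors kept every count of members within 1.5 times. DESeq2 moved the members called to 1 in Lean d7 against d5, 1 in DIO d14 against d10, 1 in DIO against Lean on d3, 4 on d5 and 1 on d10. With no filter but 1 count there was 1 in DIO d14 against d10 and 3 in DIO against Lean on d5. Between diets on d7, DESeq2 and the fit with no filter each called 8, with P4ha3 added. With all 30 libraries in 1 fit there were 0 in DIO d5 against d3 (220 of 17357 genes) and 3 in DIO d10 against d3 (3796 of 17357). The replicate block left 1 in DIO d5 against d3 (234 of 16995 genes). On d7 between diets it left 5 (320 of 15753 genes), with P4ha1 and Plod1 lost (adjusted p = 0.0661 and 0.0822). It left 6 in the change of the diet difference (838 of 17057 genes). Correlations of same-numbered mice were most even in Lean d7 against d5 (0.204 to 0.277), where the block gave 0 calls as well. All were also above 0 in Lean d5 against d3 (0.037 to 0.320) and Lean d10 against d7 (0.039 to 0.230). The same held for Lean d10 against d3 (0.004 to 0.296) and DIO d14 against d10 (0.067 to 0.151). In each of the other comparisons the lowest was below 0. Leaving out 1 mouse at a time gave 1 to 3 members in Lean d10 against d3, 1 to 2 over all Lean days and 0 to 2 in DIO d5 against d3. It gave 1 to 7 in DIO d21 against d14, 2 to 4 in DIO d10 against d3, 0 to 6 between diets on d5 and 1 to 8 on d7. The cause of these moves was not tested, beyond the fewer samples. Over all genes, leaving out 1 mouse moved the counts called to 9 to 129 in Lean d5 against d3, 24 to 1141 in Lean d10 against d7, 2863 to 5016 in Lean d10 against d3, 1678 to 3130 over all Lean days, 90 to 216 in DIO d5 against d3, 0 to 236 in DIO d7 against d5, 0 to 459 in DIO d14 against d10, 1285 to 4070 in DIO d21 against d14 and 2184 to 3685 in DIO d10 against d3. Between diets they were 0 to 237 on d3, 0 to 935 on d5, 29 to 936 on d7 and 0 to 10 on d10, with 257 to 1660 for the change and 619 to 1983 for the time course. The counts called moved with DESeq2 from 74 to 605 in Lean d5 against d3, from 450 to 1827 in Lean d10 against d7, from 3132 to 4848 over all Lean days, from 285 to 575 in DIO d5 against d3, from 3 to 346 in DIO d7 against d5 and from 129 to 552 in DIO d14 against d10. Between diets they moved from 0 to 728 on d3, from 170 to 1150 on d5, from 366 to 944 on d7 and from 0 to 47 on d10, and from 865 to 1496 for the change and from 1386 to 2501 for the time course. With no filter they were 169, 478, 271 and 329 in Lean d5 against d3, DIO d5 against d3, DIO d7 against d5 and DIO d14 against d10, and 515, 565, 724 and 29 between diets on d3, d5, d7 and d10. With the replicate block they were 199 and 1479 in Lean d5 against d3 and Lean d10 against d7, 45 in DIO d14 against d10, and 325 and 0 between diets on d3 and d5. With all 30 libraries they were 202, 1529, 1 and 2 in Lean d5 against d3, Lean d10 against d7, DIO d7 against d5 and DIO d14 against d10, and 63, 675 and 3 between diets on d5, d7 and d10.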
